A study of Mus musculus with 10 samples.

Results

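The genes described here are 10 genes of iron and heme recycling, namely Hmox1, Blvrb, Bach1, Slc40a1, Slc11a1, Tfrc, Fth1, Ftl1, Ncoa4 and Hp. They were chosen by name and are 10 of the 22607 annotated genes that the files cover. The study sequenced mRNA of sorted antigen-presenting cells, taken from C57BL/6 wild-type animals at 8 weeks of age, in 10 libraries that fell into 5 groups of 2. The groups were colonic MHCII+ cells, splenic MHCII+ cells, colonic CD11b+CD11c+ cells, colonic CD11b+ cells and colonic CD11c+ cells. The titles of the samples only abbreviate these names, and their tissue and surface markers were read from the description of the whole study. Polyadenylated RNA from about 20000 to 50000 cells per library was sequenced with a directional kit. Whether both libraries of a group were made from different mice is not stated, so p-values measure no more than the spread between libraries. MHCII is the surface complex that presents antigen to helper T cells, and CD11b and CD11c are the integrins encoded by Itgam and Itgax.

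Macrophages engulf aged red cells and free haemoglobin. They break heme down to iron, carbon monoxide and biliverdin with heme oxygenase 1 (Hmox1). Blvrb encodes one of the biliverdin reductases. The iron is kept in ferritin, a shell of heavy (Fth1) and light (Ftl1) chains, or leaves the cell through ferroportin (Slc40a1). The heme-binding repressor BACH1 holds back Hmox1 and the ferritin genes until heme is present.

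Part of this control acts on the mRNA. Iron regulatory proteins bind short hairpins, the iron-responsive elements, when iron is scarce, which blocks translation where the hairpin lies in the 5′ UTR and protects the transcript where it lies in the 3′ UTR. The hairpins below are shown because they mark the members that these proteins act on. They were searched for in the annotated transcripts of the 10 genes, in the sense direction, as an unpaired C, an arm of 5 bases, the loop CAGTGN and an arm that pairs with the first at all 5 positions. Each line gives the 27 bases around the match with the loop in capitals, in GENCODE M21 coordinates on mouse build GRCm38 (mm10).
Fth1, 5′ UTR, chr19:9982733-9982759, + strand: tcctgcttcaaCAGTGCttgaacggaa
Ftl1, 5′ UTR, chr7:45459780-45459806, - strand: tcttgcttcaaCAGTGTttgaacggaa
Slc40a1, 5′ UTR, chr1:45925466-45925492, - strand: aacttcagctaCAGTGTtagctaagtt
Tfrc, 3′ UTR, chr16:32631220-32631246, + strand: attatcggaagCAGTGCcttccataat
Tfrc, 3′ UTR, chr16:32631599-32631625, + strand: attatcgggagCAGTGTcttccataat
Tfrc, 3′ UTR, chr16:32631664-32631690, + strand: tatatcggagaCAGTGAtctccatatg
Tfrc, 3′ UTR, chr16:32631711-32631737, + strand: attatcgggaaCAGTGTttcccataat
The Fth1 and Ftl1 elements shared 25 of 27 bases, and the Slc40a1 element shared 13 of 27 with each of them. The search found 4 elements in Tfrc and none in Hmox1, Blvrb, Bach1, Slc11a1, Ncoa4 or Hp. The same pattern occurs in 0.808% of all annotated genes, so a match describes letters and is not by itself a working element. By its transcript lengths, of which 88.95% were multiples of 3, the index used by the authors held mainly coding sequences. Reads over these hairpins were therefore taken as not counted, and translation was not measured.

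Each library held between 12806139 and 41769042 estimated counts. H2-Aa, an MHC class II chain, ranged from 3773 to 6770 CPM (counts scaled to library size with TMM factors, within each set of libraries) over the 10 libraries. Itgam stood at 694 and 793 CPM in CD11b+CD11c+ cells, 742 and 743 CPM in CD11b+ cells, and 25.9 and 40.5 CPM in CD11c+ cells. Itgax was present in every group, including CD11b+ cells at 491 and 557 CPM. The 2 CD11c+ libraries stood apart from each other, because the summed CPM of 9 macrophage markers was 328 in library 1 and 1427 in library 2. That group had 4053 and 4381 CPM of 7 conventional dendritic cell markers. In sorted populations of this kind fewer cells of a type and less RNA per cell cannot be told apart.

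The members differed most between the colonic subsets that carry CD11b and the one that does not. In colonic CD11b+ cells against CD11c+ cells, 9 of the 10 were higher and Tfrc was lower by edgeR's quasi-likelihood test at a Benjamini-Hochberg adjusted p under 0.05, beside 52.0% of 14225 genes tested (27.0% higher and 25.0% lower). In CD11b+CD11c+ cells against CD11c+ cells, 8 were higher and none was lower, beside 43.0% of the genes tested (20.4% higher and 22.5% lower). Colonic MHCII+ cells against splenic MHCII+ cells gave 5 higher and 3 lower members beside 60.3% of 15076 genes (31.6% higher and 28.7% lower). CD11b+CD11c+ cells against CD11b+ cells gave 1 lower member, Hp, beside 9.63% of genes (3.79% higher and 5.84% lower). The 3 comparisons among colonic subsets share libraries and one estimate of the spread, and are not independent of one another.

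The median log2 fold change of the 10 members was 1.92 in CD11b+ over CD11c+ cells, where the median of all genes tested was -0.02. It was 2.13 in CD11b+CD11c+ over CD11c+ cells, beside -0.09 for all genes. The other 2 medians were closer to those of all genes, at 0.48 beside 0.02 in colonic over splenic MHCII+ cells and 0.26 beside 0.01 in CD11b+CD11c+ over CD11b+ cells. With 60.3% and 52.0% of all genes called, a call alone sets a member little apart from other genes, and the sizes below carry more than the counts. All 10 members passed the filter on low counts in both sets of libraries.

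**Figure D1:**
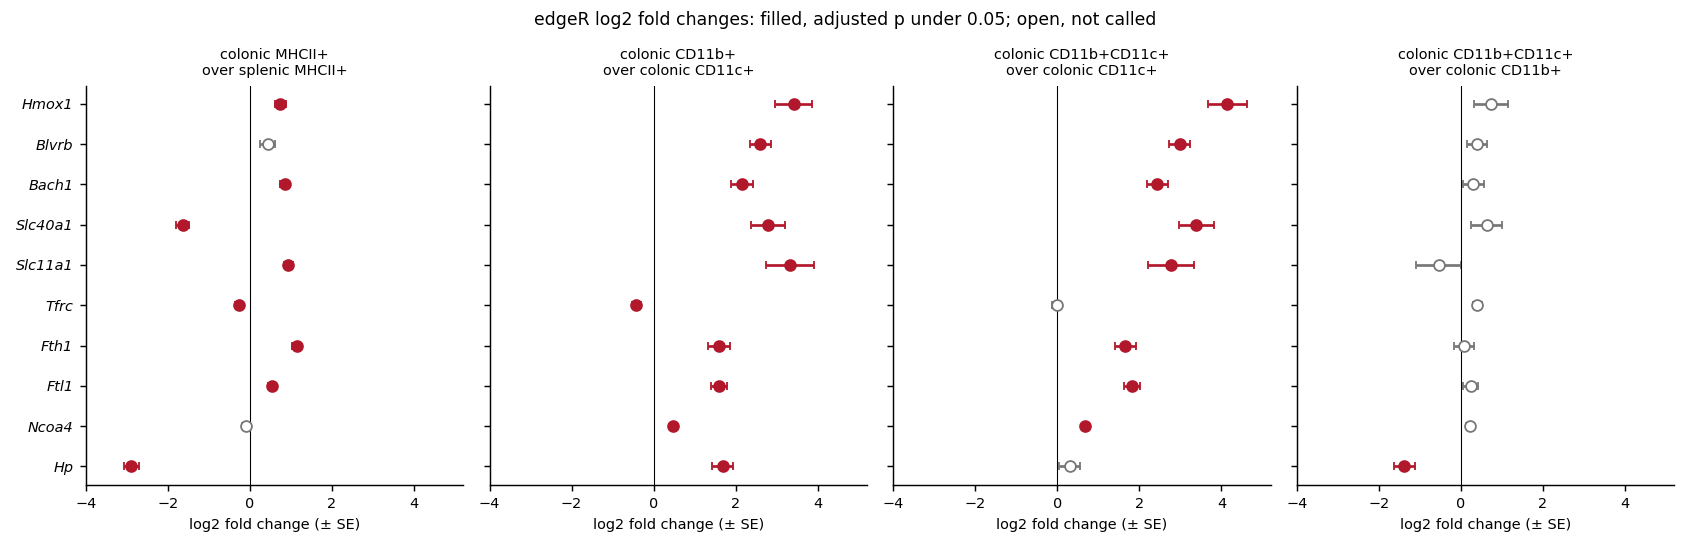
Log2 fold change with its standard error (x axis) for each of the 10 genes (y axis) in the 4 comparisons, 1 panel each, with filled points for genes called by edgeR at an adjusted p under 0.05. The 2 panels against CD11c+ cells reach 3.41 and 4.14 for Hmox1, while in colonic over splenic MHCII+ cells Slc40a1 and Hp lie to the left of 0 at -1.64 and -2.89.

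Hmox1 (ENSMUSG00000005413.8, on chromosome 8 from 75093621 to 75100589), the heme-cleaving enzyme, had the widest range of the 10 genes. Its abundance was 292 and 316 TPM (transcript abundance scaled for length and depth) in CD11b+CD11c+ cells, 187 and 194 TPM in CD11b+ cells, and 9.04 and 24.9 TPM in CD11c+ cells. Colonic MHCII+ cells had 101 and 119 TPM, against 77.1 and 71.1 TPM in splenic MHCII+ cells. None of these 5 groups overlapped its neighbours in the order of levels, and the highest group mean was 17.9 times the lowest. In the count model the log2 fold change was 4.14 (SE 0.48, edgeR adjusted p = 0.00160) in CD11b+CD11c+ over CD11c+ cells. It was 3.41 (SE 0.46, edgeR adjusted p = 0.00214) in CD11b+ over CD11c+ cells. Colonic MHCII+ cells exceeded splenic ones by 0.74 (SE 0.13, edgeR adjusted p = 0.00301). The last call was lost when all 10 libraries were fitted together (adjusted p = 0.107).

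Between the 2 subsets that carry CD11b, Hmox1 was not called in the main fit or in 10 of 13 alternatives. Both CD11b+CD11c+ libraries lay above both CD11b+ libraries, with a log2 difference of 0.73 (SE 0.42) that did not pass in the fit of the 6 subset libraries (edgeR adjusted p = 0.334). That fit takes its spread from all 3 subsets, and the 2 CD11c+ libraries differed strongly from each other in Hmox1. In the 4 libraries of these 2 subsets alone, an alternative chosen after seeing the data, the adjusted p was 0.00493. It was 0.00557 without CD11c+ library 1 and 0.00560 without CD11c+ library 2.

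Blvrb (chromosome 7, 27447978 to 27466144) is a cytosolic reductase of biliverdin and flavins. It had 80.2 and 97.6 TPM in CD11b+CD11c+ cells, 70.1 and 71.9 TPM in CD11b+ cells, and 8.65 and 13.8 TPM in CD11c+ cells. Both CD11b-bearing subsets lay far above CD11c+ cells, with log2 fold changes of 2.98 (SE 0.26, edgeR adjusted p = 7.86e-04) and 2.60 (SE 0.26, adjusted p = 7.82e-04). Colonic MHCII+ cells had 29.0 and 33.5 TPM, against 22.7 and 29.4 TPM in splenic MHCII+ cells, which overlapped in TPM though not in CPM, and the difference was not called (edgeR adjusted p = 0.0870).

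Bach1 (chromosome 16, 87698945 to 87733346), the repressor of Hmox1, followed the same order of groups as its target. It had 91.8 and 107 TPM in CD11b+CD11c+ cells, 78.6 and 88.7 TPM in CD11b+ cells, and 13.5 and 22.4 TPM in CD11c+ cells. The log2 fold change was 2.44 (SE 0.26) in CD11b+CD11c+ over CD11c+ cells and 2.15 (SE 0.26) in CD11b+ over CD11c+ cells, with edgeR adjusted p = 0.00132 and 0.00145. Neither Bach1 (0.30, SE 0.25, edgeR adjusted p = 0.509) nor Blvrb (0.38, SE 0.24, edgeR adjusted p = 0.370) was called in CD11b+CD11c+ over CD11b+ cells. Bach1 was also higher in colonic MHCII+ cells, at 44.4 and 53.0 TPM, than in splenic MHCII+ cells, at 29.4 and 30.9 TPM. That difference was 0.85 (SE 0.11, edgeR adjusted p = 8.75e-04) and was called under all 9 alternatives tried. At the level of mRNA the repressor and its target were high in the same groups.

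Slc40a1 (ENSMUSG00000025993.10, chromosome 1, 45908068 to 45926523, minus strand), the iron exporter ferroportin, departed from that order. It was most abundant in splenic MHCII+ cells at 60.1 and 63.3 TPM, against 22.01 and 17.3 TPM in colonic MHCII+ cells. These groups did not overlap, and the log2 fold change of colonic over splenic cells was -1.64 (SE 0.16, edgeR adjusted p = 2.19e-04), or 3.13-fold lower in the colon. It stayed between -1.82 and -1.50 under the 9 alternatives. Hmox1 was higher and Slc40a1 lower in colonic MHCII+ cells relative to splenic ones.

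Among the colonic subsets Slc40a1 had 23.2 and 31.9 TPM in CD11b+CD11c+ cells, 21.6 and 20.1 TPM in CD11b+ cells, and 2.70 and 6.49 TPM in CD11c+ cells. Every library of the first 2 subsets lay above both CD11c+ libraries. The log2 fold change was 3.39 (SE 0.43, edgeR adjusted p = 0.00216) in CD11b+CD11c+ over CD11c+ cells and 2.78 (SE 0.42, edgeR adjusted p = 0.00323) in CD11b+ over CD11c+ cells. CD11b+CD11c+ over CD11b+ cells gave 0.62 (SE 0.38, edgeR adjusted p = 0.359), and an adjusted p of 0.0273 in the 4 libraries of that pair alone. This difference was not called in 10 of 13 alternatives. With limma on TPM the values were 2.55 in CD11b+CD11c+ and 2.17 in CD11b+ over CD11c+ cells, both called. The exporter rested on thin data in CD11c+ cells, where its main transcript had 51.8 estimated counts in library 1.

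Slc11a1 (chromosome 1, 74375195 to 74386062) encodes NRAMP1, which moves iron out of the phagosome. By TPM it was the only member with its highest level in CD11b+ cells, at 145 and 155 TPM. CD11b+CD11c+ cells had 84.3 and 113 TPM and CD11c+ cells 6.13 and 22.3 TPM. The log2 fold change against CD11c+ cells was 3.32 (SE 0.59, edgeR adjusted p = 0.00525) for CD11b+ cells and 2.77 (SE 0.57, edgeR adjusted p = 0.0113) for CD11b+CD11c+ cells. The second call was lost without CD11b+CD11c+ library 2 (adjusted p = 0.0517). CD11b+CD11c+ and CD11b+ libraries did not overlap, but their difference of -0.55 was not called (SE 0.54, edgeR adjusted p = 0.577). Colonic MHCII+ cells, at 70.7 and 59.7 TPM, exceeded splenic MHCII+ cells, at 36.5 and 40.2 TPM, by 0.93 on the log2 scale (SE 0.11, edgeR adjusted p = 5.26e-04), a call lost when all 10 libraries were fitted together (adjusted p = 0.110).

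The sizes of these differences depended on which CD11c+ library was used. Library 2 held more than library 1 of each of the 9 macrophage markers, whose part in the result was not tested. For CD11b+ over CD11c+ cells, the log2 fold change of Hmox1 was 2.82 without CD11c+ library 1 and 4.33 without library 2. Slc40a1 gave 2.14 and 3.66 in the same order, and Slc11a1 gave 2.64 and 4.54. For CD11b+CD11c+ over CD11c+ cells the pairs were 3.55 and 5.07 for Hmox1, 2.76 and 4.28 for Slc40a1, and 2.09 and 3.99 for Slc11a1. Each of these 12 values was called.

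Tfrc (chromosome 16, 32608920 to 32632794), the transferrin receptor that brings iron into the cell, did not share the pattern of the other members. It had 13.9 and 12.9 TPM in CD11b+CD11c+ cells, 11.3 and 9.09 TPM in CD11b+ cells, and 14.6 and 12.2 TPM in CD11c+ cells. CD11b+ cells lay lowest, with a log2 fold change of -0.42 over CD11c+ cells (SE 0.12, edgeR adjusted p = 0.0280) that was lost without CD11c+ library 1 (0.102) or CD11b+ library 2 (0.132) and with limma on TPM (0.126). CD11b+CD11c+ and CD11c+ libraries overlapped, and the difference of -0.02 (SE 0.12) was not called (edgeR adjusted p = 0.904) and turned to between 0.01 and 0.07 in 9 of 13 alternatives. CD11b+CD11c+ over CD11b+ cells gave 0.40 (SE 0.12, edgeR adjusted p = 0.0990). That difference was not called in 10 of 13 alternatives. It was called with no count filter (0.0363), with DESeq2 (0.0398) and with all 10 libraries in 1 fit (0.0299). Colonic MHCII+ cells had 21.2 and 20.7 TPM, against 29.5 and 28.1 TPM in splenic MHCII+ cells. Their log2 fold change of -0.27 (SE 0.10) lay at the threshold (edgeR adjusted p = 0.0497) and was lost in 6 of 9 alternatives, with adjusted p up to 0.257.

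**Figure D2:**
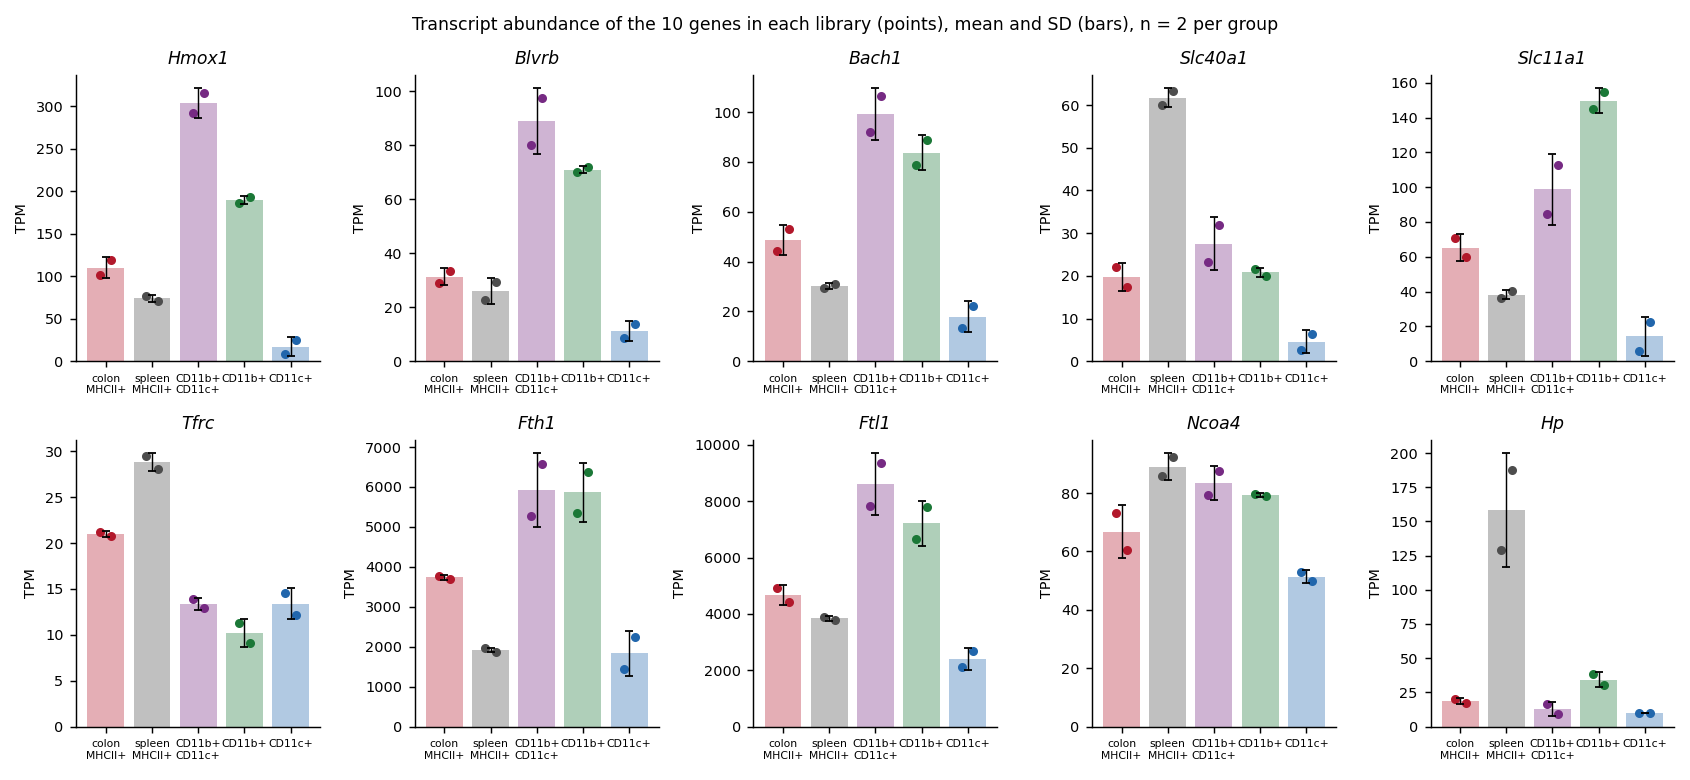
TPM (y axis, linear from 0) of each of the 10 genes in the 5 groups (x axis), with a point for each library and a bar at the mean with its SD (n = 2). Hmox1, Blvrb and Bach1 are highest in CD11b+CD11c+ cells, Slc40a1, Tfrc, Ncoa4 and Hp in splenic MHCII+ cells, and Slc11a1 in CD11b+ cells.

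The ferritin chains were the most abundant of the 10 transcripts. Fth1 (chromosome 19, 9980598 to 9985098), the heavy chain with ferroxidase activity, had 5269 and 6569 TPM in CD11b+CD11c+ cells, 5348 and 6379 TPM in CD11b+ cells, and 1434 and 2233 TPM in CD11c+ cells. Colonic MHCII+ cells had 3773 and 3692 TPM, against 1959 and 1873 TPM in splenic MHCII+ cells. By TPM it ranked between the 14th and 103rd most abundant gene of each library. CD11b+CD11c+ and CD11b+ cells overlapped, as did splenic MHCII+ and CD11c+ cells.

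Ftl1 (chromosome 7, 45457944 to 45459884, minus strand), the light chain that aids mineral formation, had 7823 and 9375 TPM in CD11b+CD11c+ cells, 6658 and 7792 TPM in CD11b+ cells, and 2121 and 2673 TPM in CD11c+ cells. Colonic MHCII+ cells had 4934 and 4428 TPM, against 3896 and 3784 TPM in splenic MHCII+ cells. The lowest library of each CD11b-bearing subset lay well above both CD11c+ libraries for either chain. In CD11b+ over CD11c+ cells the log2 fold change was 1.59 for both chains (SE 0.26 for Fth1 and 0.19 for Ftl1, edgeR adjusted p = 0.00401 and 0.00140). In CD11b+CD11c+ over CD11c+ cells it was 1.66 for Fth1 and 1.82 for Ftl1 (SE 0.26 and 0.19, edgeR adjusted p = 0.00430 and 0.00126). Neither chain differed detectably between the CD11b-bearing subsets, at 0.07 (SE 0.25) and 0.23 (SE 0.18), with edgeR adjusted p = 0.896 and 0.497.

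The chains moved unequally between tissues. Fth1 was 1.14 higher on the log2 scale in colonic MHCII+ than in splenic MHCII+ cells (SE 0.11, edgeR adjusted p = 2.01e-04), and Ftl1 was 0.54 higher (SE 0.10, edgeR adjusted p = 0.00446). The Ftl1 call was lost with limma on TPM (adjusted p = 0.233). The heavy to light ratio in TPM was 0.765 and 0.834 in colonic MHCII+ libraries, against 0.503 and 0.495 in splenic MHCII+ libraries. It was 0.674 and 0.701 in CD11b+CD11c+ cells, 0.803 and 0.819 in CD11b+ cells, and 0.676 and 0.835 in CD11c+ cells. Splenic MHCII+ cells thus had the lowest ratio, and all 8 colonic libraries lay above it. The ratio was not tested, and these values are a description.

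Both chains together made up 1.45% and 1.70% of TPM in CD11b+CD11c+ cells, 1.33% and 1.57% in CD11b+ cells, and 0.357% and 0.558% in CD11c+ cells. The share was 0.871% and 0.812% in colonic MHCII+ cells, against 0.586% and 0.566% in splenic MHCII+ cells. There the copy had 1.30 and 1.24 TPM in colonic and 1.37 and 2.76 TPM in splenic libraries, so it adds unequally to the groups. The level of Ftl1 includes a 255-base transcript annotated for nonsense-mediated decay, which held up to 19.6% of its counts and raises its TPM because it is short. On estimated counts the ratio passed 1 in every colonic library, between 1.05 and 1.31, but not in splenic ones, at 0.807 and 0.757, so which chain is higher depends on the scale while the order of the tissues does not. Reads from the copy Ftl1-ps1 amounted to at most 1.48% of light-chain counts, but the copy is short and weighs more in TPM. It had 671 TPM beside 2673 TPM of Ftl1 in CD11c+ library 2, where adding it takes the heavy to light ratio to 0.668.

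**Figure D3:**
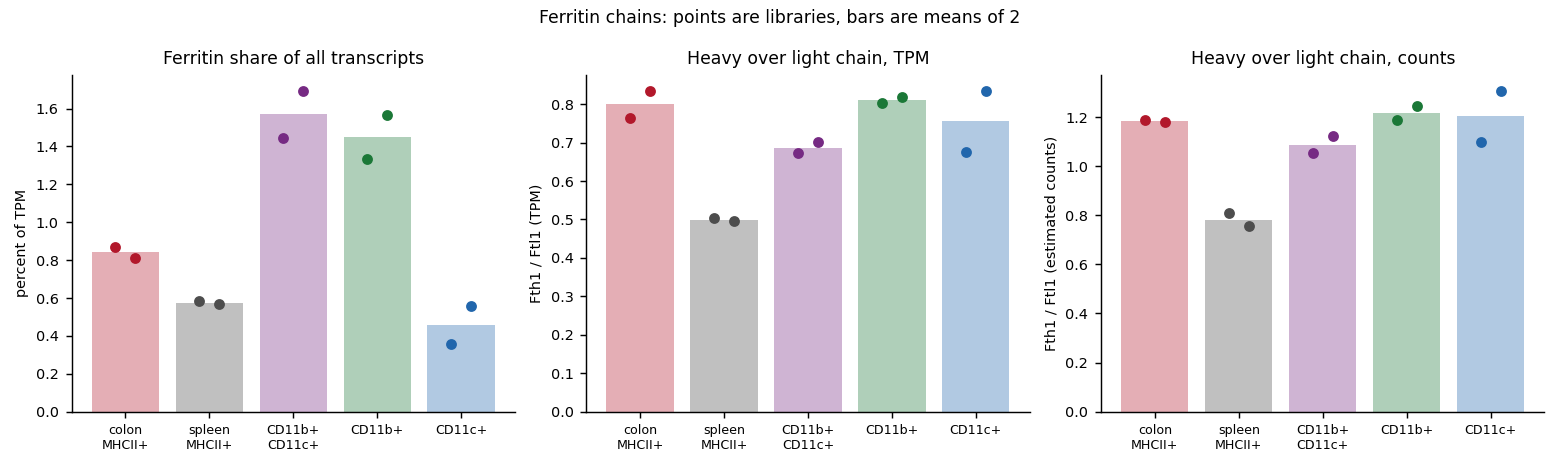
Ferritin in the 5 groups (x axis): the share of TPM held by both chains and the copy Ftl1-ps1 in percent (left), and the ratio of Fth1 to Ftl1 in TPM (middle) and in estimated counts (right), each y axis starting at 0. Points are libraries and bars are means of 2, and the splenic MHCII+ libraries have the lowest ratio on both scales, 0.503 and 0.495 in TPM.

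Ncoa4 (chromosome 14, 32159865 to 32179855), the receptor that delivers ferritin to autophagy, varied least, with a highest group mean 1.73 times the lowest. It had 79.4 and 87.6 TPM in CD11b+CD11c+ cells, 79.8 and 78.9 TPM in CD11b+ cells, and 52.9 and 49.9 TPM in CD11c+ cells. The log2 fold change was 0.68 (SE 0.09, edgeR adjusted p = 0.00267) in CD11b+CD11c+ over CD11c+ cells and 0.48 (SE 0.09, edgeR adjusted p = 0.00709) in CD11b+ over CD11c+ cells. The second was lost without CD11b+ library 2 (0.0645). Between CD11b+CD11c+ and CD11b+ cells the difference of 0.21 was not called (SE 0.09, edgeR adjusted p = 0.221). Colonic MHCII+ cells had 73.2 and 60.4 TPM, against 85.7 and 92.2 TPM in splenic MHCII+ cells, which did not overlap, yet the difference was not called (-0.11, SE 0.09, edgeR adjusted p = 0.324). The splenic group was the highest by TPM but not by CPM. TPM also depends on how kallisto split reads between transcripts of unequal length. A transcript with 395 coding bases held 8.47% and 7.27% of Ncoa4 counts in splenic and 6.08% and 3.28% in colonic MHCII+ cells. Its part in the order by TPM was not tested.

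Hp (ENSMUSG00000031722.10, chromosome 8, 109575128 to 109579172, minus strand) encodes haptoglobin, the plasma protein that captures free haemoglobin. It was most abundant in splenic MHCII+ cells, at 129 and 188 TPM, against 20.4 and 17.4 TPM in colonic MHCII+ cells. The log2 fold change of colonic over splenic cells was -2.89 (SE 0.18, edgeR adjusted p = 3.21e-05), or 7.43-fold lower in the colon, and it stayed between -3.12 and -2.66 in all 9 alternatives. Neutrophil markers moved with it. The summed CPM of 11 neutrophil markers was 518 and 419 in colonic MHCII+ cells, against 5305 and 7757 in splenic MHCII+ cells, with 10 of the 11 called lower and none higher. Their part in the result was not tested.

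In the colonic subsets Hp had 16.2 and 8.997 TPM in CD11b+CD11c+ cells, 38.3 and 30.3 TPM in CD11b+ cells, and 10.2 and 10.04 TPM in CD11c+ cells. The CD11b+ libraries lay above all 4 others, with a log2 fold change of 1.68 over CD11c+ cells (SE 0.26, edgeR adjusted p = 0.00347). CD11b+CD11c+ over CD11b+ cells gave -1.38 (SE 0.26, edgeR adjusted p = 0.0257), the only member called in that comparison, and CD11b+CD11c+ over CD11c+ cells gave 0.30 (edgeR adjusted p = 0.394). The call between the CD11b-bearing subsets was lost with limma on TPM (0.0535) and without CD11b+ library 1 (0.172) or 2 (0.0927), and Hp became called over CD11c+ cells without CD11b+CD11c+ library 2 (0.71, adjusted p = 0.0343). The neutrophil sum was 214 and 281 CPM in CD11b+CD11c+ cells, 802 and 739 CPM in CD11b+ cells, and 6.07 and 21.4 CPM in CD11c+ cells. Its largest parts in CD11b+ library 1 were Retnlg, Csf3r and Mmp9, at 288, 225 and 181 CPM. In splenic MHCII+ library 1 they were S100a9, Ngp and S100a8, at 1657, 1126 and 1096 CPM, so the sums differ in make-up. Of the 11 markers 5 were at 0 in CD11c+ cells (S100a8, Camp, Ngp, Mmp8 and Elane) and 2 in CD11b+CD11c+ cells (Ngp and Elane). The part of the markers in these results was not tested.

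Macrophage markers moved with the heme-breakdown genes. Their sum was 9281 and 12143 CPM in CD11b+CD11c+ cells, 8204 and 9238 CPM in CD11b+ cells, and 328 and 1427 CPM in CD11c+ cells, and 9 of 9 were called higher in either CD11b-bearing subset over CD11c+ cells. None of the 9 was called between CD11b+CD11c+ and CD11b+ cells. In colonic MHCII+ cells the sum was 2878 and 2546 CPM, against 1211 and 1345 CPM in splenic MHCII+ cells, with 7 of 9 higher. Slc40a1 did not share this order, because the splenic libraries held the most Slc40a1 while their macrophage sum was below that of every colonic library except CD11c+ library 1. The part of the macrophage markers in the results for Hmox1, Blvrb, Bach1 and Slc11a1 was not tested.

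**Figure D4:**
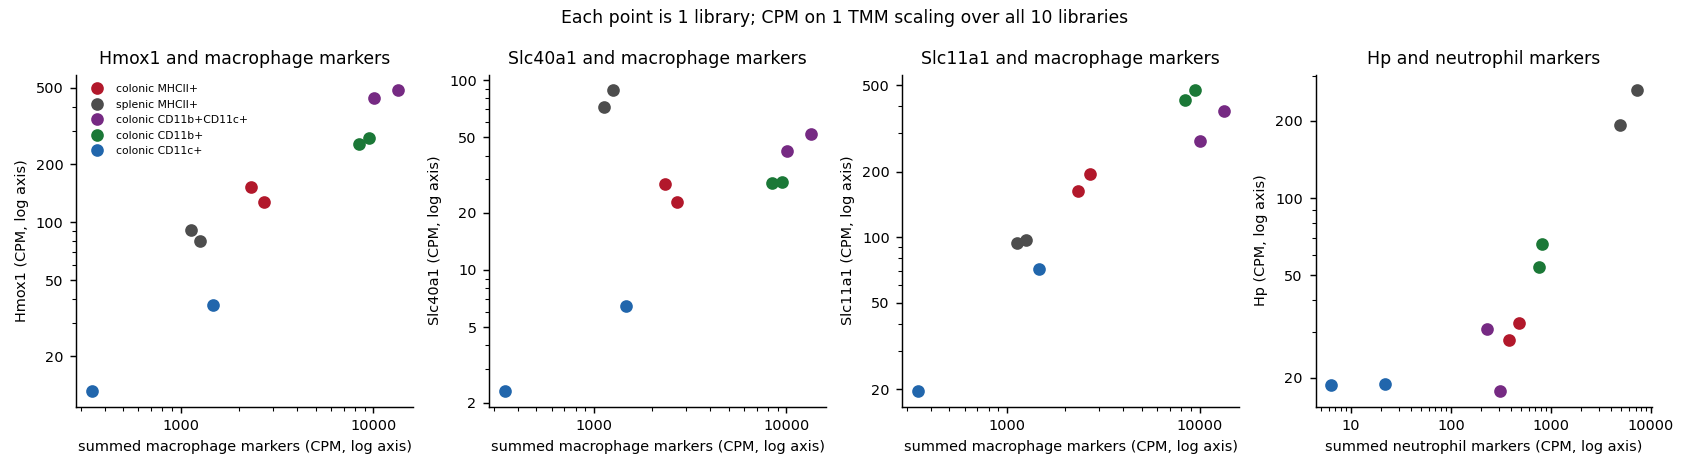
CPM of Hmox1, Slc40a1 and Slc11a1 against the summed CPM of 9 macrophage markers, and of Hp against the summed CPM of 11 neutrophil markers, with 1 point per library on log axes and 1 TMM scaling over all 10 libraries. The 2 splenic MHCII+ points sit above the rest in Slc40a1, at 72.4 and 89.0 CPM, and the Hp panel has both splenic points at the top right.

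Other cell types were measured in the same way. Conventional dendritic cell markers summed to 1158 and 1337 CPM in colonic MHCII+ cells against 3297 and 2769 CPM in splenic MHCII+ cells, and to 1486 and 889 CPM in CD11b+CD11c+ cells, 331 and 321 CPM in CD11b+ cells, and 4053 and 4381 CPM in CD11c+ cells. Of 7 such markers 6 were lower in the colonic MHCII+ cells and all 7 were lower in each CD11b-bearing subset than in CD11c+ cells. Erythroid markers, nearly all globin reads, summed to 1739 and 1157 CPM in colonic and 578 and 1366 CPM in splenic MHCII+ cells, with 0 of 9 higher and 3 lower. The sums were 23.4 and 41.2 CPM in CD11b+CD11c+ cells, 32.2 and 71.4 CPM in CD11b+ cells, and 14.3 and 8.57 CPM in CD11c+ cells. Of 6 erythroid markers tested there, 5 were higher in CD11b+ than in CD11c+ cells and 2 in CD11b+CD11c+ than in CD11c+ cells, with none lower, beside the higher Hmox1 of both subsets. Epithelial markers reached 5036 and 5087 CPM in colonic MHCII+ cells against 13.8 and 16.8 CPM in splenic ones, and 5 of 8 were higher in CD11b+ and 1 of 8 in CD11b+CD11c+ than in CD11c+ cells. Plasma cell markers reached 14625 and 16422 CPM in colonic MHCII+ cells against 248 and 226 CPM in splenic ones. Plasma cell sums were 12681 and 10163 CPM in CD11b+CD11c+ cells, 16352 and 13296 CPM in CD11b+ cells, and 29811 and 39708 CPM in CD11c+ cells, with 4 of 6 markers lower and 1 higher in either subset over CD11c+ cells. The part of these markers in the results for the members was not tested.

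The remaining marker lists gave mixed counts. Monocyte markers gave 1 higher and 5 lower of 6 in colonic over splenic MHCII+ cells, and 4 higher and 1 lower in CD11b+ over CD11c+ cells. Eosinophil markers gave 2 higher and 4 lower of 8 between tissues, and 5 of 6 tested were higher in CD11b+ than in CD11c+ cells. B cell markers were lower in colonic MHCII+ cells in 6 of 6, and T cell markers in 4 of 6. All 6 T cell markers were also lower in each CD11b-bearing subset than in CD11c+ cells, with sums of 28.5 and 7.86 CPM in CD11b+CD11c+ cells, 16.5 and 17.1 CPM in CD11b+ cells, and 491 and 176 CPM in CD11c+ cells. Stromal and endothelial markers were higher in 5 of 7 and lower in 2 of 7 between tissues, and higher in 6 of 7 in CD11b+ over CD11c+ cells. The CD11b+CD11c+ cells went the other way, with 5 of 7 lower and none higher over CD11c+ cells and again over CD11b+ cells.

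The wider pathway was described with 81 genes in 9 lists. In CD11b+ over CD11c+ cells 42 of 74 tested were higher and 8 lower, beside 27.0% and 25.0% of all genes. In CD11b+CD11c+ over CD11c+ cells 42 of 74 were higher and 7 lower, beside 20.4% and 22.5%. In colonic over splenic MHCII+ cells 31 of 76 were higher and 16 lower, beside 31.6% and 28.7%. In CD11b+CD11c+ over CD11b+ cells 1 of 74 was higher and 6 lower, beside 3.79% and 5.84%, so the share called was close to the 9.63% of all genes.

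**Figure D5:**
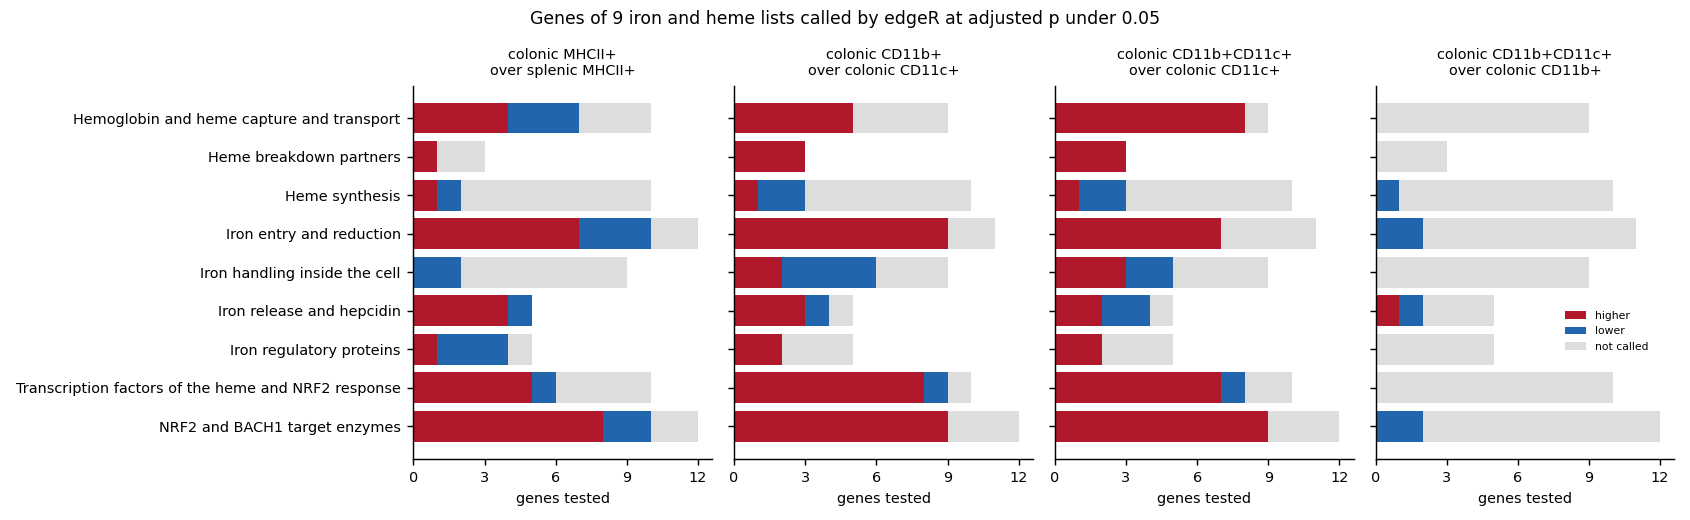
Number of genes tested (x axis) in each of 9 iron and heme lists (y axis) that edgeR called higher, lower or not at all in the 4 comparisons. The lists against CD11c+ cells are mostly higher, with 42 higher in each of the 2 comparisons, while CD11b+CD11c+ over CD11b+ cells gave 7 calls in all.

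The list of haemoglobin and heme capture and transport held receptors, carriers and exporters. Cd163, the haemoglobin scavenger receptor, had 622 and 686 CPM in CD11b+CD11c+ cells, 395 and 360 CPM in CD11b+ cells, and 6.90 and 20.2 CPM in CD11c+ cells. Its log2 fold change over CD11c+ cells was 5.61 and 4.82 (SE 0.51 and 0.49, edgeR adjusted p = 8.84e-04 and 8.75e-04). Lrp1, a receptor for the heme carrier hemopexin, gave 3.04 and 2.83. Of 9 tested members 8 were higher in CD11b+CD11c+ over CD11c+ cells (median 0.97, all genes -0.09) and 5 in CD11b+ over CD11c+ cells (median 1.04, all genes -0.02), with none lower. Of all genes, 20.4% and 27.0% were higher in these comparisons. Slc48a1, which carries heme out of the phagolysosome, was called only in the first of these (0.64, adjusted p = 0.0212), and Hpx, hemopexin itself, in neither. Between tissues Cd163 had 98.4 and 91.2 CPM in colonic against 20.8 and 20.9 CPM in splenic MHCII+ cells (2.19, SE 0.10, edgeR adjusted p = 1.15e-05), while Lrp1 (-0.58) and the heme exporter Flvcr1 (-1.0) were lower. Slc48a1 and Hpx were not called there.

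The partners of heme oxygenase were higher in CD11b+CD11c+ and in CD11b+ cells than in CD11c+ cells, with 3 of 3 called. Their medians were 1.16 and 0.84, beside -0.09 and -0.02 for all genes, of which 20.4% and 27.0% were higher. Por, which passes electrons to heme oxygenase, had 170 and 191 CPM in CD11b+CD11c+ cells, 207 and 211 CPM in CD11b+ cells, and 42.9 and 54.2 CPM in CD11c+ cells. Por was also higher in colonic than in splenic MHCII+ cells (1.01, SE 0.10, edgeR adjusted p = 2.28e-04), where Hmox2 and Blvra were not called. The 10 genes of heme synthesis gave few calls, with 1 higher and 2 lower against CD11c+ cells in either comparison. The shares of all genes were 20.4% and 27.0% higher, and 22.5% and 25.0% lower. The list had medians of -0.03 and -0.10, beside -0.09 and -0.02 for all genes. The lower genes were Alad (-0.69 in CD11b+CD11c+ and -0.84 in CD11b+ over CD11c+ cells) and Uros (-0.57 and -0.84), and Ppox was lower in colonic than in splenic MHCII+ cells (-0.80). The higher gene was Alas1, the first enzyme of the pathway, at 51.0 and 63.0 CPM in CD11b+CD11c+ cells, 149 and 134 CPM in CD11b+ cells, and 13.4 and 15.7 CPM in CD11c+ cells. It was lower in CD11b+CD11c+ than in CD11b+ cells by -1.32 (SE 0.14, edgeR adjusted p = 0.00445) and higher in colonic than in splenic MHCII+ cells by 1.15 (SE 0.11, adjusted p = 2.08e-04).

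Iron entry and reduction genes were higher in 9 of 11 in CD11b+ over CD11c+ cells (median 1.04, all genes -0.02) and in 7 of 11 in CD11b+CD11c+ over CD11c+ cells (median 1.05, all genes -0.09), with none lower. Of all genes, 27.0% and 20.4% were higher in these comparisons. Trf, transferrin, had 1180 and 1363 CPM in CD11b+CD11c+ cells, 853 and 945 CPM in CD11b+ cells, and 417 and 461 CPM in CD11c+ cells. Slc11a2, the divalent metal transporter DMT1, gave 2.79 and 2.42 over CD11c+ cells. Between tissues 7 of 12 were higher and 3 lower, beside 31.6% and 28.7% of all genes (median 1.48, all genes 0.02). The lower ones included Ltf, lactoferrin, at 42.1 and 18.05 CPM in colonic against 1349 and 1694 CPM in splenic MHCII+ cells, and Lcn2, lipocalin 2, at 16.6 and 8.88 CPM against 392 and 518 CPM. Both are granule proteins of neutrophils, and the neutrophil sums given with Hp moved the same way. The part of neutrophil markers in the Ltf and Lcn2 results was not tested. In CD11b+CD11c+ over CD11b+ cells Ltf (-4.20, SE 0.72) and Lcn2 (-3.37, SE 0.42) were lower too, but both were scarce. Ltf had 0.949 and 0.389 CPM against 5.77 and 19.3 CPM, and Lcn2 had 1.22 and 0.545 CPM against 7.69 and 10.9 CPM.

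The remaining lists were mixed. Of 5 iron release genes tested, 4 were higher in colonic over splenic MHCII+ cells (median 2.79, all genes 0.02), beside 31.6% of all genes. Among them were Cp, ceruloplasmin, and Heph, both ferroxidases that work with ferroportin, while Hfe was lower (-1.40). Heph had 24.5 and 18.2 CPM in colonic against 0.0235 and 0.151 CPM in splenic MHCII+ cells. Epithelial markers moved the same way, and their part was not tested. Bmp6 (means 2.68 against 0.253 CPM) and Tmprss6 (0.950 against 0.143 CPM) were scarce. Cp had 16.2 and 13.03 CPM in colonic against 1.78 and 2.48 CPM in splenic MHCII+ cells. By TPM its order was the reverse, at 4.96 and 2.25 TPM in colonic against 6.33 and 10.1 TPM in splenic MHCII+ cells. The direction for Cp between tissues therefore depends on the scale. Cp was 2.81 and 2.52 higher in CD11b+CD11c+ and CD11b+ cells than in CD11c+ cells. Hfe was the gene called higher in CD11b+CD11c+ than in CD11b+ cells, at 70.0 and 77.9 CPM against 44.4 and 48.5 CPM (0.67, SE 0.10, edgeR adjusted p = 0.0130). Hamp, which encodes hepcidin, reached at most 0.545 CPM in any of the 10 libraries and was not tested. The list named for iron regulatory proteins held Aco1 and Ireb2, which encode them, and Fbxl5, Herc2 and Rnf217, which do not. In this list Fbxl5 (-0.56), Ireb2 (-0.31) and Herc2 (-1.09) were lower in colonic than in splenic MHCII+ cells. Rnf217 was higher and Aco1 was not called (median of 5 genes -0.31). Iron handling inside the cell gave 2 higher and 4 lower of 9 in CD11b+ over CD11c+ cells, and 3 higher and 2 lower in CD11b+CD11c+ over CD11c+ cells. It gave 0 higher and 2 lower of 9 between tissues, and the 3 medians were -0.16, 0.09 and -0.02. The shares of all genes in the same order were 27.0%, 20.4% and 31.6% higher, and 25.0%, 22.5% and 28.7% lower.

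The list of transcription factors of the heme and NRF2 response also held Keap1, which encodes an inhibitor of NRF2. This list gave 8 higher of 10 in CD11b+ over CD11c+ cells, 7 in CD11b+CD11c+ over CD11c+ cells and 5 between tissues. Keap1 was the 1 lower gene each time. Of all genes, 27.0%, 20.4% and 31.6% were higher in these comparisons. The medians were 1.34, 1.32 and 0.71, beside -0.02, -0.09 and 0.02 for all genes tested. Spic, a transcription factor that mouse red pulp macrophages depend on, had 55.7 and 67.1 CPM in CD11b+CD11c+ cells, 41.8 and 48.0 CPM in CD11b+ cells, and 1.21 and 4.77 CPM in CD11c+ cells. It was 4.44 and 3.99 higher than in CD11c+ cells (SE 0.53 and 0.52, edgeR adjusted p = 0.00178 and 0.00191). Spic did not differ detectably between tissues, at 19.8 and 12.7 CPM in colonic against 16.3 and 16.0 CPM in splenic MHCII+ cells (0.02, SE 0.23, edgeR adjusted p = 0.958). Nfe2l2, which encodes NRF2, was higher in colonic MHCII+ cells at 370 and 328 CPM against 109 and 132 CPM in splenic ones (1.53, SE 0.13, edgeR adjusted p = 1.11e-04).

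Enzymes that NRF2 switches on and BACH1 holds back were higher in 9 of 12 in either comparison with CD11c+ cells, with none lower (medians 0.72 for CD11b+ cells and 0.87 for CD11b+CD11c+ cells, all genes -0.02 and -0.09). Of all genes, 27.0% and 20.4% were higher there. Txnrd1, thioredoxin reductase, had 359 and 344 CPM in colonic against 50.1 and 50.8 CPM in splenic MHCII+ cells (2.80, SE 0.09, edgeR adjusted p = 4.24e-06), and Prdx1 was 0.77 higher. Gsr, glutathione reductase, was lower in the colonic cells (-0.50, adjusted p = 0.0394). Between tissues 8 were higher and 2 lower, beside 31.6% and 28.7% of all genes (median 0.71, all genes 0.02). Gsr and Nqo1 were the 2 lower genes in CD11b+CD11c+ over CD11b+ cells, and Gsr had 51.9 and 57.4 CPM against 344 and 296 CPM there.

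For Hmox1 and Hp the genes with the most similar profile over the 10 libraries were found among 6918 genes with a mean of at least 20 CPM, as the smallest root mean square difference of centred log2(CPM + 1). Nearest to Hmox1 were Fcgr1 (0.33), Spic (0.33) and Pltp (0.34). Hp lay nearest to Arhgef18 (0.38), Spns3 (0.39) and Limd2 (0.41). Among the 4 members compared in this way, Hmox1 and Slc11a1 were each other's nearest member at 0.50, and Slc40a1 and Hp were far from every other member, at 1.11 from each other. Likeness over 10 libraries in 5 groups describes these samples only.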

How the data were processed

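The authors' deposited kallisto tables give, per the file headers, a transcript's coding length, effective length, estimated counts and TPM for each library; kallisto 0.44.0, sleuth and build mm10 are named in the submitters' processing notes. Transcripts were assigned to genes with GENCODE M21 (65747 of 66760, or 98.5%, matched), the deposited estimated counts and deposited TPM were summed per gene, and counts were rounded. Lengths were deposited too and were used only to describe transcripts. The unmatched transcripts held 0.532% to 0.912% of counts and were left out.

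Counts were tested with edgeR 4.0.16 (R 4.3.3) quasi-likelihood tests after filterByExpr and TMM scaling, in the 4 MHCII+ libraries and in the 6 colonic subset libraries, with Benjamini-Hochberg adjustment over all genes tested and a threshold of 0.05. The code was tested on simulated counts. Alternatives were RLE size factors, no count filter, DESeq2 1.42.0, limma 3.58.1 on log2(TPM + 0.5), 1 fit of all 10 libraries, a replicate block and leaving out each library. A fit of the 4 libraries of a comparison was added after seeing the data. No source used here gives kallisto's strand setting.

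The members and lists were chosen with earlier results of these data known. Named genes were all 10 members, up to 3 called genes per pathway list with the highest mean CPM, and Spic, Cd163, Hpx, Hamp, Slc48a1 and Lcn2. Genes with profiles like Slc40a1 and Slc11a1 are not reported here. A few further called genes were named after their values were seen. Pathway lists covered heme and haemoglobin capture, heme breakdown partners, heme synthesis, iron entry, iron handling and iron release. They also covered iron regulatory proteins with related genes, transcription factors with Keap1, and NRF2 targets. Marker lists covered macrophage, monocyte, dendritic cell, neutrophil, eosinophil, erythroid, epithelial, B cell, plasma cell, T cell and stromal genes. Replicates differed by more than sampling noise (chi-square per gene of 11.2 to 40.5) and none was merged.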

Additional observations from a re-analysis of the deposited data

How the results depend on the processing

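Of the results recomputed under other settings, 440 kept their direction and side of the threshold, 17 lost their call, 11 gained one and 12 changed sign. The sign changes were all in differences that were not called. For Tfrc in CD11b+CD11c+ over CD11c+ cells the values were 0.04 (RLE), 0.03 (no filter), 0.03 (DESeq2), 0.01 (limma), 0.05 (4 libraries), 0.06 (all 10 libraries), and -0.11 to 0.07 without single libraries. Hp in the same comparison was -0.19 to 0.71 without single libraries, and Fth1 in CD11b+CD11c+ over CD11b+ cells was -0.06 to 0.31. The cause was not tested.

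Leaving out single libraries called 4372 to 7089 genes in CD11b+ over CD11c+ cells, the fewest without CD11b+ library 1 (4473 without library 2). In CD11b+CD11c+ over CD11c+ cells it called 3190 to 5707, the fewest without CD11b+CD11c+ library 2, where the share called higher was 64.6% instead of 47.6%. In CD11b+CD11c+ over CD11b+ cells limma on TPM called 834 genes (27.2% higher, against 39.3%), and leaving out single libraries called 226 to 1748, the fewest without CD11b+ library 1. The heavy to light ferritin ratio on counts was 1.19 in colonic MHCII+, 0.782 in splenic MHCII+, 1.09 in CD11b+CD11c+, 1.22 in CD11b+ and 1.20 in CD11c+ cells, against 0.799, 0.499, 0.687, 0.811 and 0.756 in TPM. With the short copy Ftl1-ps1 added it was 0.603 in CD11b+CD11c+, 0.678 in CD11b+ and 0.67 in CD11c+ cells.

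Same-numbered libraries of CD11b+CD11c+ and CD11c+ cells deviated together (correlation 0.333), but those of the other pairs of subsets did not (-0.053 and 0.005), so the numbers were not taken to pair the libraries. With the replicate block 7316, 6075 and 1427 genes were called in CD11b+ over CD11c+, CD11b+CD11c+ over CD11c+ and CD11b+CD11c+ over CD11b+ cells. No paired analysis was possible because both splenic titles carry the same number for the MHCII+ libraries. With 2 libraries per group, and 12806139 counts in the smallest library, small differences may go undetected.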
